A study of Mus musculus with 6 samples.

Results

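Inflammasomes and pyroptosis were followed through 10 genes, Nlrp3, Nlrp1b, Nlrc4, Pycard, Casp1, Casp4, Gsdmd, Il18, Il18bp and Il1rn, which were read by symbol from a table of 52550 genes. The RNA-seq libraries came from bone marrow-derived macrophages (BMDMs) of C57BL/6 mice, 3 from MSR1 KO mice and 3 from MSR1 WT mice with the same background. Msr1 encodes macrophage scavenger receptor 1, and the comparison asks what its loss changed in macrophages kept beside bone marrow stem cells (BMSCs). Marrow cells of both genotypes were grown for 7 days with 25 ng/ml M-CSF, the growth factor that turns marrow precursors into macrophages, and then shared medium with BMSCs across a transwell membrane for 48 h, so no library came from macrophages alone. The deletion is carried by the mice and was thus present throughout macrophage development. The age and sex of the mice, and the genotype of the BMSCs, are not given in the sources used here. The 3 libraries of a genotype are described as biological replicates, without a statement of whether each came from a separate mouse, so the p-values measure the spread between these samples.

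An inflammasome is a protein platform that forms in the cytosol when a sensor meets a microbial product or a sign of damage. The sensor, often through the adaptor ASC, gathers and activates caspase-1, which matures IL-1β and IL-18 and cuts gasdermin D, whose freed end makes pores in the cell membrane and ends in a lytic death called pyroptosis. A non-canonical branch runs through caspase-11, and secreted antagonists hold the released cytokines in check. In macrophages several of these genes are kept low until a first signal through Toll-like or interferon receptors, a step called priming. All of this acts largely on proteins, and the libraries measured only mRNA.

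Total counts per library ranged from 36143518 to 47417448. Differences were tested with edgeR's quasi-likelihood method, and adjusted p-values follow Benjamini and Hochberg. Msr1 itself fell by 2.02 on the log2 scale (adjusted p = 0.0012 by edgeR), from between 7543 and 9219 counts per MSR1 WT library to between 1825 and 2118 per MSR1 KO library, so the labels matched the targeted gene while reads on it remained. Macrophage markers were abundant in every library, with a summed level of 10 genes between 23000 and 25800 CPM (counts scaled to a common library size with the TMM factor), led by Lyz2, Csf1r and Adgre1. In bulk samples such as these, fewer cells of a type and less RNA per cell cannot be told apart.

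The 10 genes fall on 6 chromosomes of GRCm38, and a tight pair lies on chromosome 9, where Casp1 (ENSMUSG00000025888.5, chr9:5298517-5307265, plus strand) ends 1562 bases before Casp4 (ENSMUSG00000033538.13, chr9:5308828-5336783, plus strand) begins. RefSeq start sites gave promoter windows of 300 bases, 250 before the start and 50 after it, for 9 of the 10 genes. The windows were searched on both strands for letters bound by factors of priming. The windows of Nlrp3, the best-known sensor, and of Casp4 and Il18bp, a protease and an antagonist that were higher in MSR1 KO libraries, are shown 5′ to 3′ along the gene (GRCm38.p6), with matches to κB-type motifs in capitals. They lie at chr11:59541319-59541618 (plus strand), chr9:5308599-5308898 (plus strand) and chr7:102018183-102018482 (minus strand).
Nlrp3: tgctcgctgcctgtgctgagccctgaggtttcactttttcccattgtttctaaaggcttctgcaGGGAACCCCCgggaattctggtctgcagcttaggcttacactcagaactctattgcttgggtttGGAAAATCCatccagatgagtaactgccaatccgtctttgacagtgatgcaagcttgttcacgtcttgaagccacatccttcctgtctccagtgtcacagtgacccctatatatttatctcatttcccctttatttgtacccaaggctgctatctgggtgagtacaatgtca
Casp4: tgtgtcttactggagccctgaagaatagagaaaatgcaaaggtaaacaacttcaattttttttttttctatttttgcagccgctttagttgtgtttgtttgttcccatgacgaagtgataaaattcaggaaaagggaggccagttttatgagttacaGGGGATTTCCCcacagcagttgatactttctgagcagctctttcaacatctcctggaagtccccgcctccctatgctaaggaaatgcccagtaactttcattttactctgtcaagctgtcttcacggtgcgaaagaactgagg
Il18bp: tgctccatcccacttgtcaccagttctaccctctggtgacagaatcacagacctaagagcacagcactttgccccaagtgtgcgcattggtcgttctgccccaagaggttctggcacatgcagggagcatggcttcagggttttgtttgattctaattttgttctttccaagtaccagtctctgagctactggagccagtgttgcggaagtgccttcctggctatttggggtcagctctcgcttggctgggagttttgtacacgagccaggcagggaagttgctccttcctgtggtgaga

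In the Nlrp3 window the κB-type letters GGANTTTCC matched on the minus strand from -122 to -114 relative to the start site, and the broader κB consensus matched at -186 to -177. The Casp4 window held overlapping matches to the κB consensus from -93 to -83. The Il18bp window held neither. GGANTTTCC occurred in 1.25% of 32851 mouse promoter windows of the same length and the κB consensus in 4.51%. The PU.1-type letters GAGGAAGT, found in 3.2% of windows, matched in a window of Nlrp1b and in that of Pycard. Neither the GAS-type letters TTCNNNGAA (8.3% of windows) nor the ISRE-type letters GAAANNGAA (8.56%), associated with interferon responses, occurred in any window of these genes, which says only that these letters are not in these bases. A match of letters is a description of the sequence and not a bound site.

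Of the 10 genes, 3 were higher and 1 was lower in MSR1 KO libraries by the study's definition of a differentially expressed gene (fold change above 1.5 and unadjusted p under 0.05, here from edgeR). The higher genes were Casp4, Il18 and Il18bp, and the lower gene was Il1rn. Among all 16402 genes tested, the same definition called 3.59% higher and 5.05% lower. At an adjusted p under 0.05 (edgeR, whatever the fold change), 4 genes were higher, namely these 3 and Gsdmd, and 0 were lower, against 2.25% and 2.66% of all genes. At an unadjusted p under 0.05 the edgeR test called 7 of the 10, against 18.9% of all genes in either direction. Every MSR1 KO library lay above every MSR1 WT library for 6 genes and below for 1 gene, against 12.1% and 13.4% of all genes. The median log2 fold change was 0.45 over the 10 genes and -0.0 over all genes tested. All 10 genes passed the filter on low counts. The adjusted calls were sensitive to single libraries: they numbered 0 without MSR1 KO replicate 1, MSR1 KO replicate 2, MSR1 WT replicate 1 or MSR1 WT replicate 2 and 3 without the third replicate of either genotype, whereas the study's definition called Casp4, Il18 and Il18bp whichever library was left out. It lost Il1rn without MSR1 KO replicate 2, MSR1 WT replicate 2 or MSR1 WT replicate 3, and it added Casp1 (log2 fold change 0.62) without MSR1 KO replicate 3 and Gsdmd (0.59) without MSR1 WT replicate 3.

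**Figure D1:**
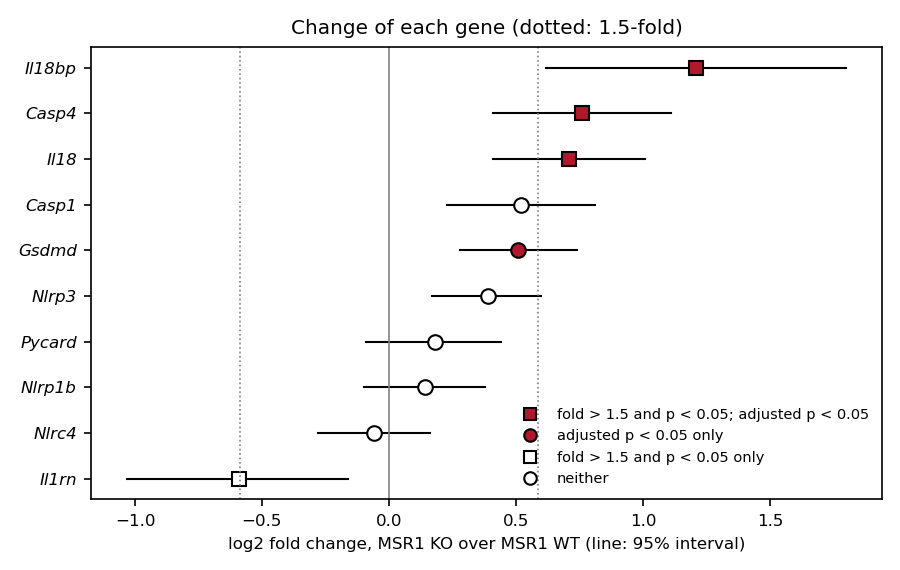
Log2 fold change (MSR1 KO over MSR1 WT, x axis) of each of the 10 genes with its 95% interval from edgeR, ordered by size. Filled symbols have an adjusted p under 0.05, squares pass the study's definition, and dotted lines mark 1.5-fold. Il18bp stands at 1.21 and Il1rn, the lowest, at -0.59.

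None of the 3 sensors passed either threshold. Nlrp3 (ENSMUSG00000032691.14, chr11:59541568-59566956, plus strand) encodes the sensor that answers ion fluxes, crystals and ATP, and its amount limits how readily the platform forms. It had 62.8, 69.4 and 58.6 CPM in MSR1 KO libraries and 49.6, 44.8 and 51.3 CPM in MSR1 WT libraries. All MSR1 KO values were thus above all MSR1 WT values, with means of 63.6 ± 5.45 and 48.6 ± 3.37 CPM (SD, n = 3). The change of 1.31-fold (log2 fold change 0.39, standard error 0.0934) did not pass either threshold, with an adjusted p of 0.055 by edgeR.

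Nlrp1b (ENSMUSG00000070390.12, chr11:71153102-71230733, minus strand), a sensor cleaved by the protease of anthrax toxin, had 53.8, 50.7 and 46.3 CPM in MSR1 KO and 40.1, 50.2 and 46.5 CPM in MSR1 WT libraries. The groups overlapped, and the 95% interval of the log2 fold change ran from -0.10 to 0.38. Its reads may be split with the near-identical copies Nlrp1a and Nlrp1c-ps, so its level is uncertain. Nlrc4 (ENSMUSG00000039193.7, chr17:74426295-74459108, minus strand) works with NAIP proteins to detect flagellin and bacterial secretion systems. Its 6 values ran together, at 32.9, 35.3 and 32.8 CPM against 34.4, 32.2 and 38.7 CPM, with a log2 fold change of -0.06 and an interval from -0.28 to 0.16. A 1.5-fold change lay outside the intervals of both Nlrp1b and Nlrc4.

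Pycard (ENSMUSG00000030793.4, chr7:127989708-127993867, minus strand) encodes ASC, the adaptor that joins sensor and caspase-1 and polymerizes into a single speck. It had 66.5, 77.3 and 57.0 CPM in MSR1 KO and 56.1, 59.4 and 62.4 CPM in MSR1 WT libraries. Only MSR1 KO replicates 1 and 2 were above the MSR1 WT range, and the log2 fold change of 0.18 (interval -0.09 to 0.44) did not pass the edgeR test. Gm45205, on the opposite strand, shares 485 exon bases with Pycard, 12.8% of its exon length, and had 5994 counts in all against 15826 for Pycard. Since the strand setting of the counting is not given in the sources used here, the part of such reads in the Pycard counts was not tested.

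The proteases and the pore protein lay higher in every MSR1 KO library. Casp1, whose product matures the cytokines and cuts gasdermin D, had 69.5, 88.4 and 64.8 CPM in MSR1 KO libraries and 50.5, 48.4 and 56.2 CPM in MSR1 WT libraries. The lowest MSR1 KO library was still above the highest MSR1 WT library, with means of 74.2 ± 12.5 and 51.7 ± 4.01 CPM (SD, n = 3). The 1.44-fold difference (log2 fold change 0.52, standard error 0.125, adjusted p = 0.055 by edgeR) missed the 1.5-fold limit and the adjusted threshold. Over 12 alternatives the adjusted p ran from 0.0036 with DESeq2 to 0.18 without MSR1 WT replicate 1, and it passed under DESeq2 and with at least 10 counts required in every library, as did that of Nlrp3.

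Casp4 encodes mouse caspase-11, the protease that binds bacterial lipopolysaccharide in the cytosol and cuts gasdermin D without a sensor platform. Its levels were 31.2, 35.5 and 23.6 CPM in MSR1 KO libraries and 17.7, 16.4 and 19.1 CPM in MSR1 WT libraries. The MSR1 WT values were close together, whereas the MSR1 KO libraries spread over 1.51-fold. Casp4 rose by 1.7-fold (log2 fold change 0.76, standard error 0.153, adjusted p = 0.032 by edgeR), and the log2 fold change ran from 0.63 to 0.92 with each library left out in turn. Compared with its neighbour, the ratio of Casp4 to Casp1 counts was 0.449, 0.402 and 0.364 in MSR1 KO libraries and 0.35, 0.339 and 0.34 in MSR1 WT libraries. These ratios did not overlap and differed by 1.18-fold, with the smallest p that 3 against 3 libraries allow (0.1, two-sided exact permutation test, 0.133 after adjustment over 4 ratios).

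Gsdmd (ENSMUSG00000022575.4, chr15:75862339-75867404, plus strand) encodes gasdermin D, the pore-forming protein at the end of both branches. It had 126, 134 and 114 CPM in MSR1 KO and 78.8, 87.0 and 97.4 CPM in MSR1 WT libraries. Every MSR1 KO library was higher, and the means were 125 ± 10.5 and 87.7 ± 9.32 CPM (SD, n = 3). The rise of 1.42-fold (log2 fold change 0.51, standard error 0.101) passed the adjusted threshold of edgeR (adjusted p = 0.032) and stayed under the 1.5-fold limit.

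Both the cytokine IL-18 and its antagonist rose at the mRNA level. Il18 (ENSMUSG00000039217.13, chr9:50554827-50581840, plus strand) encodes the precursor of IL-18, which drives interferon-γ production by T and NK cells. It had 11.1, 13.0 and 12.1 CPM in MSR1 KO libraries and 6.99, 8.03 and 7.12 CPM in MSR1 WT libraries. Both groups were tight and well apart, and the 1.64-fold rise (log2 fold change 0.71, standard error 0.13, adjusted p = 0.027 by edgeR) had the lowest p of the 10 genes. The log2 fold change stayed between 0.66 and 0.77 with single libraries left out, while the adjusted p missed the threshold whichever library was absent and was at most 0.11.

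Il18bp (ENSMUSG00000070427.4, chr7:102014885-102018690, minus strand) encodes the secreted protein that binds mature IL-18 and keeps it from its receptor. Its levels were 78.0, 109 and 53.9 CPM in MSR1 KO libraries and 27.3, 33.9 and 42.9 CPM in MSR1 WT libraries. Il18bp had the largest change and the widest spread of the 10 genes: MSR1 KO replicate 2 was 2.03-fold above MSR1 KO replicate 3, and the latter was not far above MSR1 WT replicate 3. The rise was 2.32-fold (log2 fold change 1.21, standard error 0.256, adjusted p = 0.038 by edgeR), and the log2 fold change was 0.93 without MSR1 KO replicate 2. Its adjusted p ran from 1.1e-05 to 0.14 over 12 alternatives of the fit and missed the threshold in 6 of them. Numa1, on the opposite strand, shares 80 exon bases with Il18bp, 2.6% of its exon length, and had 95122 counts in all against 14165.

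Without correction for exon length, Il18bp exceeded Il18 in counts in every library, by 7.0, 8.43 and 4.45 to 1 in MSR1 KO and by 3.91, 4.22 and 6.03 to 1 in MSR1 WT libraries. MSR1 WT replicate 3 lay within the MSR1 KO range. The ratio differed by 1.38-fold with p = 0.2 (two-sided exact permutation test, 0.2 after adjustment over 4 ratios), so a shift in the balance of antagonist to cytokine mRNA was not detectable with these libraries.

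Il1rn (ENSMUSG00000026981.15, chr2:24336853-24351494, plus strand) encodes the IL-1 receptor antagonist, which occupies the receptor without signalling, and it was the only one of the 10 genes whose MSR1 KO libraries were all lower. It had 9.38, 6.88 and 8.82 CPM in MSR1 KO and 9.92, 12.8 and 15.0 CPM in MSR1 WT libraries. MSR1 KO replicate 1 and MSR1 WT replicate 1 were close to each other. The log2 fold change of -0.59 (standard error 0.189) was just past the 1.5-fold limit of 0.585 on the log2 scale, and the adjusted p of 0.13 by edgeR missed the threshold. The log2 fold change was -0.47 without MSR1 KO replicate 2, -0.58 without MSR1 WT replicate 2 and -0.45 without MSR1 WT replicate 3, and in each case Il1rn no longer met the study's definition.

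The cytokines that Il1rn opposes were scarce. Il1b had 142, 172 and 173 counts in MSR1 KO libraries and 78, 89 and 175 counts in MSR1 WT libraries, with overlapping groups (log2 fold change 0.59, adjusted p = 0.40 by edgeR). By qPCR the paper reports a significant increase of IL1β mRNA in MSR1 KO macrophages under co-culture with BMSCs. Il1a had between 51 and 135 counts in any library. The ratio of Il1rn to Il1b counts was 2.37, 1.59 and 2.37 in MSR1 KO libraries and 5.24, 6.84 and 3.55 in MSR1 WT libraries. That is 0.413 of the MSR1 WT ratio, without overlap, at the smallest p of 0.1 that the two-sided exact permutation test allows (0.133 after adjustment over 4 ratios). The ratio of Il1rn to Il1a was 4.16, 5.37 and 3.04 against 5.76, 6.55 and 8.17, again without overlap and with the same exact p of 0.1 (0.133 after adjustment).

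**Figure D2:**
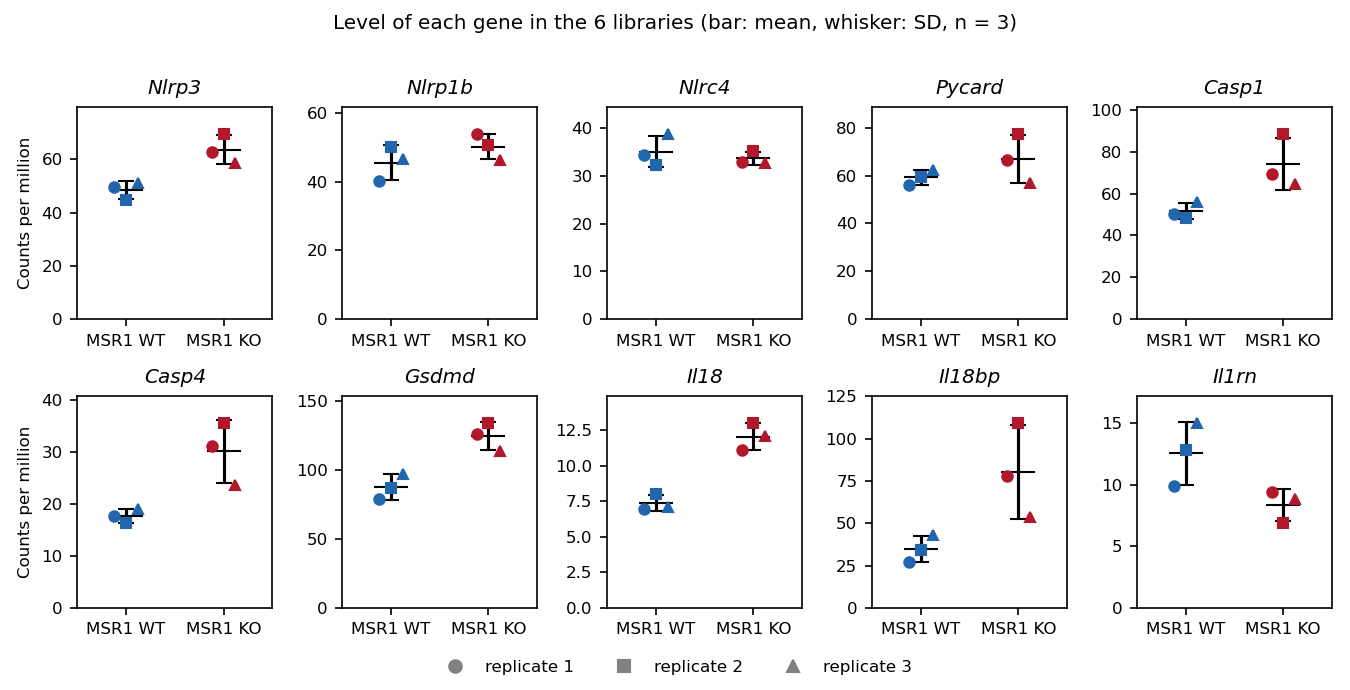
CPM of each of the 10 genes (y axis from 0) in the MSR1 WT and MSR1 KO libraries, 1 symbol shape per replicate number, with the mean as a bar and the SD of 3 libraries as whiskers. The MSR1 KO points lie above all MSR1 WT points for Nlrp3, Casp1, Casp4, Gsdmd, Il18 and Il18bp and below them for Il1rn.

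**Figure D3:**
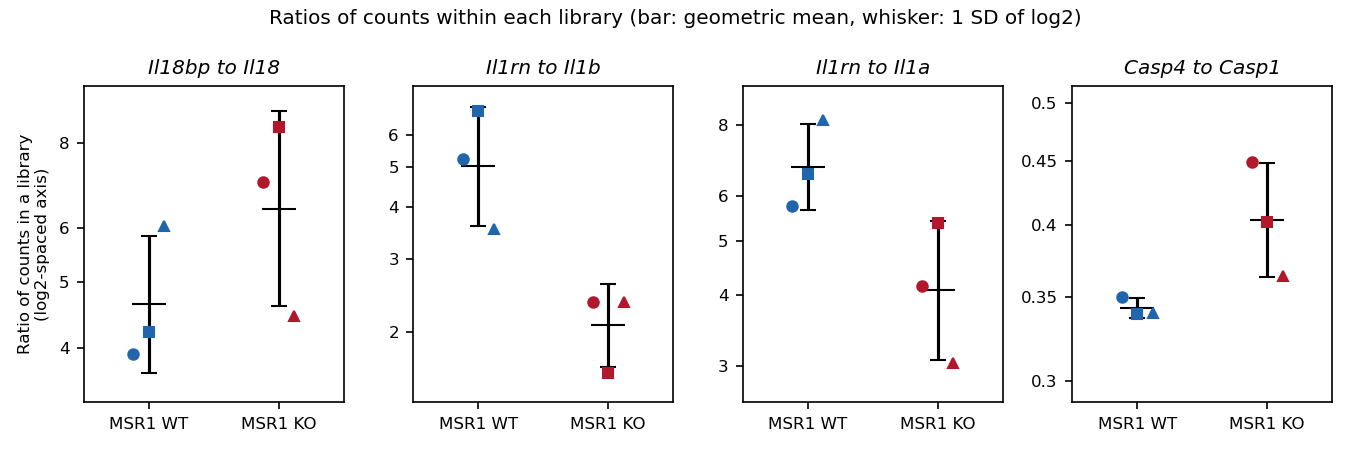
Ratio of the counts of 2 genes within each library (log2-spaced y axes), with the geometric mean as a bar and 1 SD of log2 values as whiskers, n = 3. The Il1rn to Il1b ratio is at most 2.37 in MSR1 KO and at least 3.55 in MSR1 WT libraries, whereas the Il18bp to Il18 ratios overlap.

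Per kilobase of annotated exon, Gsdmd and Casp1 led in both genotypes. The exon length covers all annotated exon blocks of a gene, such as 3800 bases in 3 blocks for Pycard. The length of the mRNA in these cells was not measured, so the order between genes depends on the annotation. The median of Gsdmd was 36.6 CPM per kilobase in MSR1 WT and 53.1 in MSR1 KO libraries, and that of Casp1 was 33.8 and 46.4, with overlapping ranges for the pair in either genotype. In MSR1 WT libraries Pycard (15.6), Nlrp3 (12.2) and Il18bp (11.2) followed, Nlrp3 and Il18bp with overlapping ranges, then Nlrc4, Nlrp1b and Il18 between 6.9 and 7.38 with overlapping ranges, then Casp4 (4.77) and Il1rn (2.32), each apart from its neighbours. In MSR1 KO libraries Il18bp (25.8) stood above Pycard (17.5) and Nlrp3 (15.5), with ranges that overlapped along this order. Il18 (11.7) was now apart from the sensors below it, Casp4 (8.41) overlapped Nlrp1b (8.04), Nlrp1b overlapped Nlrc4 (6.84), and Il1rn (1.59) was last.

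The MSR1 KO libraries differed among themselves in a common order. Of the 10 genes, 8 were highest in MSR1 KO replicate 2 among the MSR1 KO libraries and 8 were lowest in MSR1 KO replicate 3. The share of all tested genes with this order was not determined, so whether it is particular to these genes was not tested. All 6 genes without overlap on the higher side were highest in MSR1 KO replicate 2, and 5 of them were lowest in MSR1 KO replicate 3, Il18 being lowest in MSR1 KO replicate 1. Relative to the MSR1 WT mean, Il18bp was at 2.25, 3.15 and 1.55 and Casp4 at 1.76, 2.0 and 1.33 in MSR1 KO replicates 1, 2 and 3. Irf1, an interferon-induced transcription factor, had the same order at 2.09, 2.77 and 1.23. Gbp2, a guanylate-binding protein that interferon induces, was most spread, at 6.92, 15.9 and 1.8, while its MSR1 WT libraries differed by 1.21-fold. Other raised pathway genes described below were mixed. Zbp1 and Gbp5 were also highest in MSR1 KO replicate 2 and lowest in MSR1 KO replicate 3. Ifi208, at 87.0, 72.8 and 78.9 CPM in MSR1 KO replicates 1, 2 and 3, and Ifi213, at 250, 239 and 212 CPM, did not have this order. The part of MSR1 KO replicate 2 in the results was not tested beyond leaving it out. The 6 genes had been picked for their lack of overlap, so leaving out 1 library could hardly reverse their direction. Without MSR1 KO replicate 2 the adjusted calls of edgeR among the 10 genes fell from 4 to 0.

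**Figure D4:**
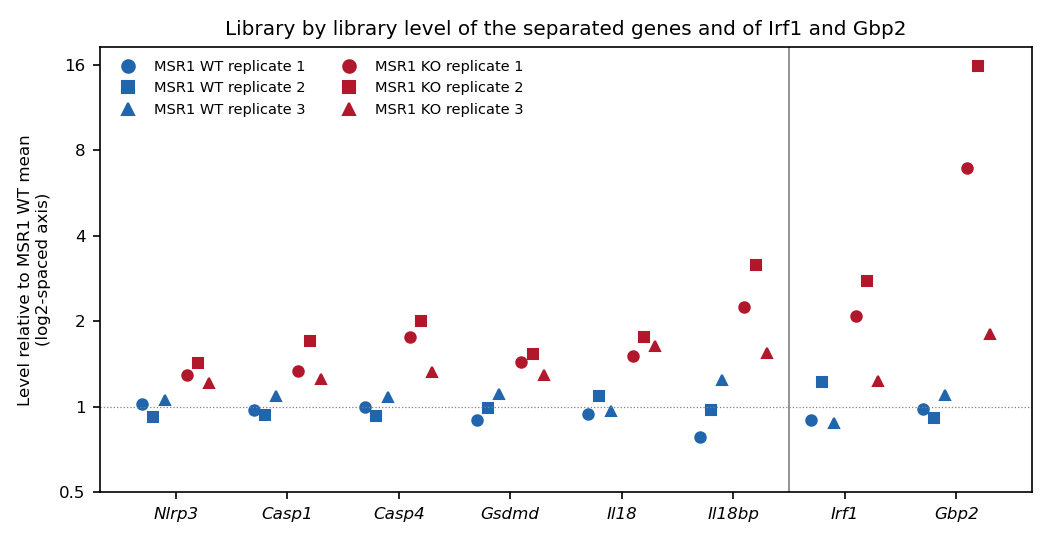
Level of 8 genes in each library divided by the MSR1 WT mean (log2-spaced y axis), the 6 inflammasome and pyroptosis genes whose MSR1 KO libraries all exceeded the MSR1 WT libraries on the left of the line and 2 interferon-related genes on the right. MSR1 KO replicate 2 (red squares) is the highest point of every gene, and MSR1 KO replicate 3 (red triangles) is the lowest red point of all of them but Il18.

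Another 79 genes of the pathway were listed in 6 groups by role, and 75 of them passed the filter on low counts. Of these, 15 were higher and 2 lower by the study's definition, against 3.59% and 5.05% of all genes. At an adjusted p under 0.05 (edgeR), 16 were higher and 0 lower, against 2.25% and 2.66%. Their MSR1 KO libraries were all above the MSR1 WT libraries for 29 genes and all below for 2 genes, against 12.1% and 13.4%. The median log2 fold change was 0.19. The 16 higher calls at the adjusted threshold became 0 without MSR1 KO replicate 1, MSR1 WT replicate 1 or MSR1 WT replicate 2 and 7 without MSR1 KO replicate 2, and 1 gene was called lower without MSR1 WT replicate 2.

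Among the other sensors, 13 of 14 genes were tested and 2 rose, both by the study's definition and at the adjusted threshold. Zbp1, a sensor of unusual nucleic acid helices, had 172, 224 and 120 CPM in MSR1 KO libraries and 50.8, 37.9 and 78.3 CPM in MSR1 WT libraries (log2 fold change 1.63, adjusted p = 0.026 by edgeR). Nod2, which senses bacterial cell wall fragments, rose by 0.72 on the log2 scale (adjusted p = 0.030 by edgeR). Nlrp10 was lower by the study's definition (log2 fold change -0.59, adjusted p = 0.14 by edgeR). Aim2, the sensor of cytosolic DNA, had a log2 fold change of 0.44 with overlapping groups, and Nlrp6, the gene that was not tested, was at 0 counts in every library.

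Of the 15 genes of assembly and trigger, 4 rose. They were Gbp2 (log2 fold change 3.04), Gbp3 (2.16), Gbp5 (2.14) and Gm12250 (1.39), the last also called Irgb10, at adjusted p-values from edgeR of 0.039, 0.022, 0.023 and 0.030. These are interferon-inducible GTPases that attack bacterial membranes and expose lipopolysaccharide and DNA. Gbp5 had 67.2, 87.4 and 27.8 CPM in MSR1 KO libraries against 13.0, 12.0 and 16.5 CPM in MSR1 WT libraries. Nek7, a kinase that NLRP3 needs, was at 128 CPM in MSR1 KO replicate 2 alone and between 38.7 and 45.4 CPM in the other 5 libraries. Nek7 was named after its values were seen.

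Of 8 tested caspases and pore proteins besides the members, 2 rose. Mlkl, the pore protein of necroptosis, had 39.5, 49.9 and 37.0 CPM in MSR1 KO libraries and 24.8, 22.4 and 25.1 CPM in MSR1 WT libraries (log2 fold change 0.81, adjusted p = 0.018 by edgeR). Casp8 (log2 fold change 0.21), an initiator caspase, had higher MSR1 KO libraries without overlap and did not pass either threshold. The gasdermin genes Gsdma and Gsdmc, which were not tested, were at 0 counts in all libraries.

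Of the 16 priming genes, 3 rose at the adjusted threshold of edgeR. Irf1 was higher by the study's definition only (log2 fold change 1.02, adjusted p = 0.073 by edgeR), and Irak2 (0.51) passed neither threshold. Irf2, a factor known to drive Gsdmd, and Myd88, the adaptor of Toll-like and IL-1 receptors, rose at adjusted p-values of 0.032 and 0.029 by edgeR, both under 1.5-fold and both chosen after their values were seen. The NF-κB subunits Nfkb1 (0.02) and Rela (0.03), also chosen after their values were seen, had log2 fold changes near 0. Tlr4, the lipopolysaccharide receptor, was lower by the study's definition (log2 fold change -1.57) with overlapping groups and an uneven spread, at 49.1, 28.7 and 21.3 CPM against 122, 36.3 and 136 CPM.

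In the IL-1 family, 11 of 12 ligand and receptor genes were tested. Il18rap, the accessory chain of the IL-18 receptor, had 15.8, 14.1 and 15.8 CPM in MSR1 KO libraries and 6.91, 8.35 and 10.8 CPM in MSR1 WT libraries (log2 fold change 0.81, adjusted p = 0.038 by edgeR). Il18r1, the binding chain, had a log2 fold change of 1.07 and was higher by the study's definition only. The decoy receptor Il1r2 (0.77) and Il1rl2, the IL-36 receptor (-0.76), passed neither threshold. Of the 12 inhibitors, 4 rose: Ifi208 (log2 fold change 1.59), Nlrc5 (1.36), Ifi213 (1.31) and Trim30a (0.66), at adjusted p-values from edgeR of 0.031, 0.039, 0.035 and 0.038. Ifi208 and Ifi213, listed here as the pyrin-only proteins Pydc3 and Pydc4, belong to a family of similar genes, so their counts are uncertain, as are those of the Gbp genes. Nlrc5 is also the transactivator of MHC class I genes, and the protease inhibitors of the NLRP1 sensors, Dpp8 (-0.10) and Dpp9 (-0.08), chosen after their values were seen, had small log2 fold changes.

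**Figure D5:**
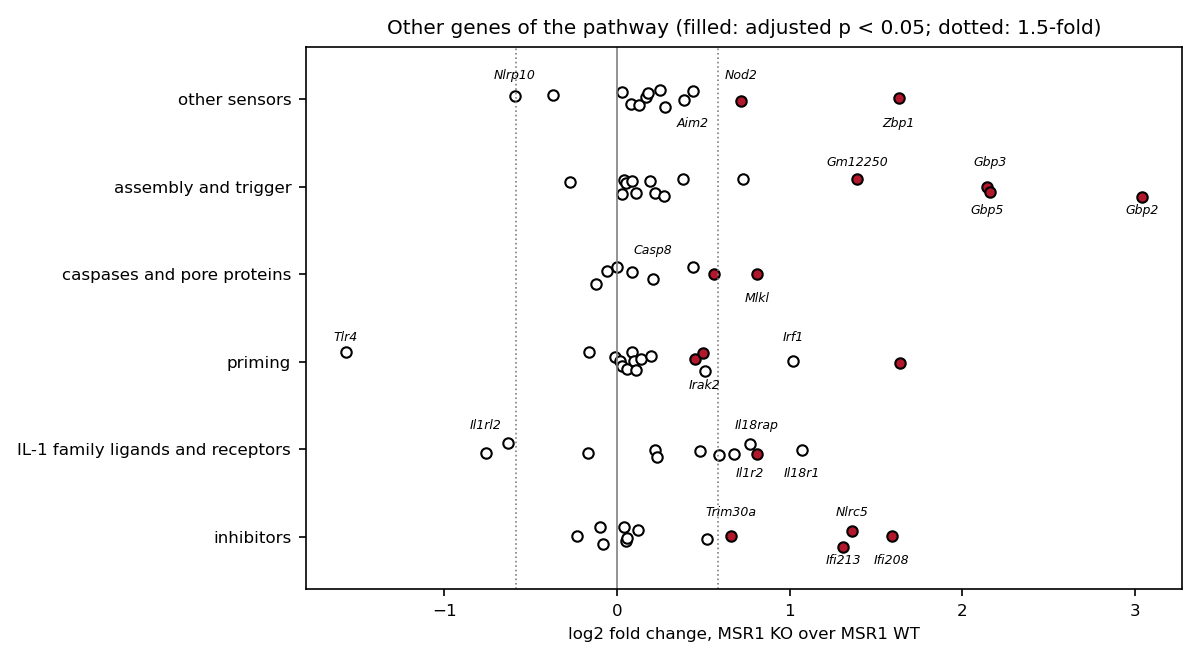
Log2 fold change (MSR1 KO over MSR1 WT, x axis) of the 75 tested genes of 6 pathway groups, spread vertically for legibility, with up to 4 of the largest changes of each group named. Filled points have an adjusted p under 0.05 by edgeR, and all 16 of them lie to the right of 0.

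Markers of other cells also moved. Of 10 T and NK cell markers, 6 were tested and 7 had a higher mean in MSR1 KO libraries. The summed level of the 10 was between 41.7 and 53.1 CPM in MSR1 KO and between 9.53 and 24.1 CPM in MSR1 WT libraries. Gzmb was the largest part of this sum, with means of 28.3 CPM in MSR1 KO and 7.62 CPM in MSR1 WT libraries. Prf1 and Cd3e, chosen after their values were seen, had means of 0.141 and 0.0645 CPM in MSR1 KO and 0.139 and 0.0927 CPM in MSR1 WT libraries. Gzmb (log2 fold change 1.90, adjusted p = 0.020 by edgeR) and Klrb1c (1.39, adjusted p = 0.028), genes of cytotoxic lymphocytes, rose, and Ncr1 (0.71), an NK cell receptor, did not pass the test. Ifng, the gene of interferon-γ, chosen after its values were seen, was at 0 counts in all MSR1 KO libraries, which allows up to 3 counts per library. Of 12 neutrophil markers, all 12 had a higher mean in MSR1 KO libraries, with a summed level between 985 and 1400 CPM against 685 to 1090 CPM, and 0 passed the adjusted threshold of edgeR. By the study's definition 2 of the 12 were higher, against 3.59% of all genes. At an unadjusted p under 0.05 the edgeR test called 4 of them, against the 18.9% of all genes, and Csf3r, Ngp and S100a9 were the most abundant. Stromal markers were lower, led in abundance by Acta2, Col1a2 and Col1a1, with 3 of 10 lower at the adjusted threshold, 1 of 10 at a higher mean and a summed level between 1850 and 2480 CPM against 2580 to 3250 CPM. The summed level of 7 dendritic cell markers was at most 4.6 CPM in any library. Of the 6 that were tested, 2 were higher by the study's definition and 0 passed the adjusted threshold, with a median log2 fold change of 0.82. The part of these cells in the changes of the inflammasome and pyroptosis genes was not tested.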

How the data were processed

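RNA-seq covered 3 libraries each of MSR1 KO and MSR1 WT macrophages co-cultured with BMSCs, for which the authors deposited raw counts per gene. The paper names TopHat for alignment and FPKM values, whereas the submitters' processing notes name fastp 0.17.1, HISAT2 2.1.0, DESeq2 1.18.1 and R 3.4.3. Which program counted the reads, with which strand setting and on which build, is not given in the sources used here. The same table holds counts divided by size factors and the authors' own fold changes and p-values, which were not used.

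After filterByExpr, 16402 genes remained. Their counts were scaled by TMM and fitted in edgeR 4.0.16 (R 4.3.3) with the quasi-likelihood functions glmQLFit and glmQLFTest, a script that had been tested on simulated data, and Benjamini-Hochberg adjustment covered these genes. CPM values use the TMM-scaled library sizes, and standard errors were obtained by dividing each log2 fold change by √F. Intervals are at 95%, and limits from a count of 0 cover counting error only. Ratios within libraries were compared by two-sided exact permutation tests (scipy 1.17.1). GENCODE vM21 (GRCm38) held 52403 of the 52550 gene identifiers, 49909 at identical coordinates, among them 8 of the 10 members, all but Nlrc4 and Gsdmd, whose positions are printed as deposited. Promoter windows came from RefSeq (GRCm38.p6). The κB consensus search was added after the first search had been seen.

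The members, the pathway and marker lists and the tests were chosen with earlier results of these data known. Named were all members, up to 4 genes per pathway list with the largest absolute log2 fold change, up to 3 genes per marker list with the most counts, Msr1, and genes whose exons overlap a member, with exceptions marked. A few genes that this rule names are not reported here. Alternatives were DESeq2 1.42.0 with its Wald test, DESeq2 size factors, library sizes without TMM, a minimum of 10 counts in every library, no filter other than a total above 0, 0.5 added to each count of a ratio, the replicate number as a block, and each library left out.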

Additional observations from a re-analysis of the deposited data

How the results depend on the processing

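Over 12 alternatives the log2 fold changes kept their direction for 9 of the 10 genes, and that of Nlrc4 ran from -0.12 to 0.02 with a library left out, turning positive without MSR1 WT replicate 3. For genes without overlap, leaving out 1 library could hardly reverse the direction. By the study's definition Casp4, Il18 and Il18bp were called under all 12, and Il1rn under 9. The 4 adjusted calls became 7 with DESeq2, which added Nlrp3, Casp1 and Il1rn, and ranged from 0 to 3 with a library left out. Pathway genes lower by the study's definition numbered 1 with DESeq2 size factors in edgeR, 1 to 2 with a library left out, and 3 with the replicate block, with library size alone or without the filter on low counts. Those higher at the adjusted threshold ranged from 0 to 15, and those lower from 0 to 1, with a library left out. The causes were not tested. Replicate numbers did not pair the libraries (correlations of deviations of -0.026, 0.019 and -0.005), and with the replicate block 0 members and 0 pathway genes passed the adjusted threshold. Changes near 1.5-fold fell on either side of the adjusted threshold, Gsdmd at 1.42-fold passing and Casp1 at 1.44-fold not, and the exact test of ratios cannot go below 0.1.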

Other observations

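Gzma, Trac, Cd3g, Fcgr1, Aif1, Pdgfra and Pdgfrb were chosen after their values were seen. When single libraries were left out, the log2 fold change of Gzmb stayed between 1.62 and 2.31, that of Klrb1c between 1.22 and 1.76, that of Gzma between 1.22 and 1.97, that of Ncr1 between 0.36 and 1.27 and that of Trac, the constant region of a T cell receptor chain, between 0.90 and 1.31. Cd3g, a chain of the CD3 complex, ran from -1.02 to 0.41. Levels were low, with a mean of 28.3 ± 4.96 CPM (SD, n = 3) for Gzmb in MSR1 KO and 7.62 ± 3.53 CPM in MSR1 WT libraries. Fcgr1, the high-affinity IgG receptor of macrophages, was at 563 ± 48.8 CPM in MSR1 KO and 256 ± 68.9 CPM in MSR1 WT libraries (log2 fold change 1.14, adjusted p = 0.018 by edgeR), and Aif1 at 120 ± 17.5 against 75.6 ± 1.38 CPM (0.67, adjusted p = 0.020). Among stromal genes Pdgfra (-1.19), Pdgfrb (-0.87) and Acta2 (-0.68) fell at adjusted p-values of 0.014, 0.025 and 0.024 by edgeR, while Col1a1 (-0.26) had overlapping groups.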
